A study of Mus musculus with 8 samples.

Results

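The genes described here are 33 genes of T cells and natural killer (NK) cells, measured in bulk mouse liver RNA, out of 27110 genes in the deposited table. They were chosen by symbol, as standard markers and effectors of these lymphocytes, and every symbol had a row. The samples were 4 female LKO livers, in which Pkd1l1 was deleted with the deletion restricted to the liver, and 4 Fl/Fl livers that carried the floxed allele, of which 3 were female and 1 was male. All 8 were taken at week 7 with the treatment entry NT. Libraries are named by genotype and replicate number: LKO 3, 4, 12 and 13, female Fl/Fl 5, 7 and 9, and male Fl/Fl 10. No source used here gives the driver of the deletion or says whether lymphocytes carry it.

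T cells recognise antigen with a receptor made of variable chains and the invariant CD3 and zeta chains. The kinase LCK phosphorylates these invariant chains, the kinase ZAP-70 docks on them, and ZAP-70 then phosphorylates adaptors that carry the signal on. NK cells lack this receptor, read other cells through germline-encoded receptors, and share with CD8 T cells the granzyme and perforin granules that kill target cells. The mouse liver sinusoids normally hold many NK and T cells, and both have been described around the bile ducts in biliary atresia, the disease named in the study's title.

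The libraries held 71491723 to 76622375 reads assigned to genes. The entry for cell type in the labels names hepatocytes and cholangiocytes, while the design text describes RNA of whole livers. Hepatocyte markers summed to 125239 to 140139 reads scaled to depth (CPM) in LKO and 131675 to 139026 CPM in female Fl/Fl libraries. The male Fl/Fl 10 had a lower sum, at 88785.6 CPM. The difference lay mainly in Alb, at 55808.9 CPM in the male, against 96159.8 to 109283 CPM in the other libraries. Ttr was also lowest in the male, while Apoa1, Serpina1a and Fgb were highest there. Cps1, Cyp2e1 and Tat lay within the range of the female libraries. Cholangiocyte markers summed to 54.7 to 65.9 CPM in LKO, 65.2 to 78.8 CPM in female Fl/Fl and 57.3 CPM in the male. Erythroid (red cell) markers summed to 198 CPM in the male, against 52.6 to 73.3 CPM in LKO and 53.7 to 90.4 CPM in female Fl/Fl. Most of the excess was Alas2, at 122 CPM in the male, against 15.2 to 27.4 CPM in the other libraries. Of the globin genes, Hba-a1 and Hbb-bt were highest in the male, and Hba-a2 and Hbb-bs in Fl/Fl 7. All 8 pan-leukocyte markers were detected, so leukocyte RNA was present beside that of the labelled cells. Pkd1l1 itself had 4 reads in all, 2 of them in LKO 13 and 1 each in Fl/Fl 7 and Fl/Fl 9, which is too few to check the genotype labels. Genotypes were compared with edgeR's quasi-likelihood test with a sex term, so that the genotype effect is that of LKO against female Fl/Fl livers, and p-values were adjusted over 16420 genes. The sex term fits the single male library exactly, so that library adds nothing to the measured spread. Separate litters or preparations are not stated, so a p-value here measures only the spread among the 7 female libraries.

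Zap70 was the gene of the 33 that passed the test between genotypes. It rose 1.66-fold in LKO livers, while the receptor chains it docks on, its partner kinase gene Lck, the NK receptors and the granule genes did not pass the test. Of the 33 genes, 27 had enough reads to be tested, 1 was higher, and none was lower. Over all genes tested, 1.41% passed at an adjusted p under 0.05, 1.02% as higher and 0.396% as lower. The other 26 tested genes had adjusted p-values from 0.411 to 0.978 by edgeR, none had an unadjusted p under 0.05, against 16.1% of all genes tested. Limma voom called none of the 26, and DESeq2 none of the 17 to which it gave an adjusted p; the other 9 had no adjusted p from DESeq2, and none of the 26 had an unadjusted DESeq2 p under 0.05. In bulk RNA a lower level from fewer cells and one from less RNA per cell cannot be told apart.

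Because Zap70 carried the difference, the 250 bases before each of its 3 annotated start sites are shown first, with the 2 of Lck, which encodes the kinase that acts just before it. The sequences are from RefSeq on build GRCm38.p6, read on the strand of the gene. Capitals mark matches, on either strand, to letters that factors of lymphocytes are known to bind: TGTGGT for RUNX factors, GGAAGT for ETS factors and TCACAC for T-box factors such as TBX21 and EOMES. The Zap70 windows lie at chr1:36761548-36761797, chr1:36764265-36764514 and chr1:36778734-36778983 on the plus strand, and those of Lck at chr4:129573642-129573891 and chr4:129558373-129558622 on the minus strand.
Zap70 start 1: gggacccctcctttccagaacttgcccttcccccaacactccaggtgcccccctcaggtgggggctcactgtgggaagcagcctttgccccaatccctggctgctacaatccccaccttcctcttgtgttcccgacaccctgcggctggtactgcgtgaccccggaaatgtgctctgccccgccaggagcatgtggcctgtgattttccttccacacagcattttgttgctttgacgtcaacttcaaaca
Zap70 start 2: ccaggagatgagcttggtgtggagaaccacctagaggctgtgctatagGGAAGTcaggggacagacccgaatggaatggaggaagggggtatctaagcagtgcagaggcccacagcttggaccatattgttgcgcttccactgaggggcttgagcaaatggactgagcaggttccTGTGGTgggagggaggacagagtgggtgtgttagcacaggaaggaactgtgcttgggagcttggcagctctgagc
Zap70 start 3: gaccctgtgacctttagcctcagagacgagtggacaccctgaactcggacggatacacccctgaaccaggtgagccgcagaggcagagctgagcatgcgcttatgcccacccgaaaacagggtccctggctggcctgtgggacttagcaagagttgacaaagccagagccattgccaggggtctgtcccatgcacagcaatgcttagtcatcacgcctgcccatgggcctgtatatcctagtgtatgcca
Lck start 1: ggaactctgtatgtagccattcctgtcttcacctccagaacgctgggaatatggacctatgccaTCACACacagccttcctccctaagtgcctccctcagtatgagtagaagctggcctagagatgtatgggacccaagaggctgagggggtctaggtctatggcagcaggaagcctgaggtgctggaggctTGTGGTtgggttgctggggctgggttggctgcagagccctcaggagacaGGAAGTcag
Lck start 2: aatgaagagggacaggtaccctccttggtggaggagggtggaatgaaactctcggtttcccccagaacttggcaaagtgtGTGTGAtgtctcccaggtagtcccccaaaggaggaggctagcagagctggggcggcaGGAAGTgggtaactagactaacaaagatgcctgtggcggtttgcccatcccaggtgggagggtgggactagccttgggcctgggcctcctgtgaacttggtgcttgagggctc
The RUNX and ETS letters both occurred before the second Zap70 start and the first Lck start, and neither occurred before the other Zap70 starts. RefSeq windows were found for 24 of the 33 genes, 29 windows in all. The RUNX letters were in 41.4% of these windows, against 14.0% of the 32851 windows of all genes, and the ETS letters in 44.8% against 19.7%. The T-box letters were in 31.0% against 12.3%, while a TATA box match (TATAAA) was in 10.3% against 12.4%. The matches describe these letters in these windows and are not evidence of binding. Some genes have more than 1 window, so the windows of a gene are not independent.

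The lymphocyte genes were low in these livers, apart from Zap70. Levels of different genes are compared in the deposited FPKM, fragments scaled to gene length and depth. The 27 tested genes had a median of 0.161 FPKM over the 8 libraries, against 2.04 FPKM over all genes tested. Zap70 averaged 4.20 FPKM, 4.15 times the level of the next gene, Il2rb, at 1.01 FPKM. Its lowest library, at 2.66 FPKM, lay above the highest library of any other of the 33 genes, which was 1.45 FPKM for Il2rb in Fl/Fl 9. After Il2rb came the granzymes Gzma (0.970 FPKM) and Gzmb (0.803 FPKM) and the receptor constant chains Trbc2 (0.740 FPKM) and Trac (0.597 FPKM). At the low end stood Ifng at 0.0284, Foxp3 at 0.0265, Eomes at 0.0193 and Gzmk at 0.00494 FPKM.

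**Figure D1:**
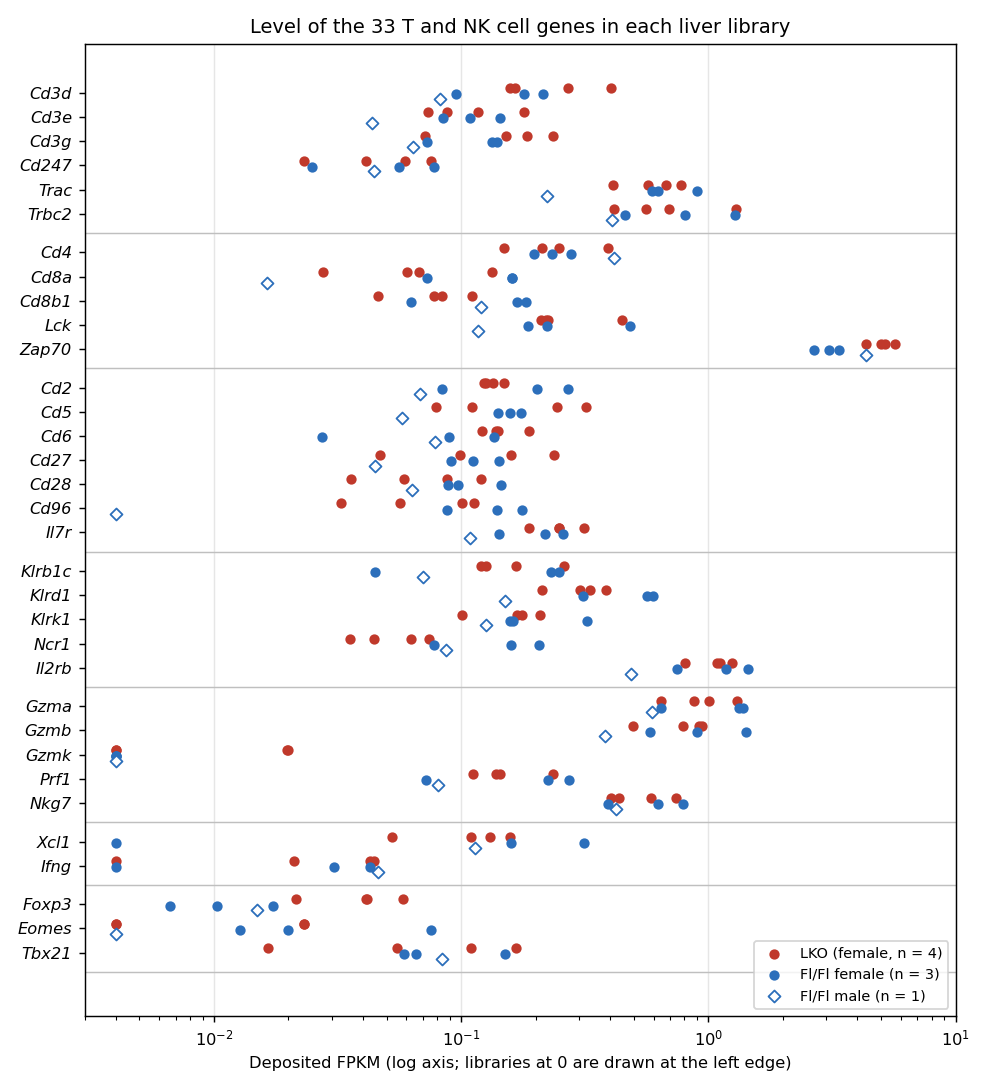
Deposited FPKM (log axis) of the 33 T and NK cell genes, grouped by role, with 1 point per library: red for LKO, blue for female Fl/Fl and an open diamond for male Fl/Fl. Zap70 lies to the right of every other gene at 2.66 to 5.67 FPKM, with the 4 LKO points above the 3 female Fl/Fl points, while the genotypes overlap for the other tested genes.

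Zap70 (ENSMUSG00000026117, chromosome 1, 36761798 to 36782818 on the plus strand, mm10) encodes the kinase described above. It had 1238, 1041, 1123 and 945 reads in LKO 3, 4, 12 and 13, against 732, 601 and 677 reads in female Fl/Fl 5, 7 and 9 and 872 reads in male Fl/Fl 10. Scaled to depth these were 16.3, 14.4, 15.005 and 12.4 CPM in LKO livers, against 9.77, 7.71 and 8.83 CPM in female Fl/Fl livers and 12.4 CPM in the male. Every LKO library was above every female Fl/Fl library, which was the case in one direction or the other for 15.1% of all genes tested, and the male Fl/Fl library was level with the lowest LKO library. The means were 14.5 ± 1.61 CPM in LKO (SD, n = 4) and 8.77 ± 1.03 CPM in female Fl/Fl (SD, n = 3). The log2 fold change was 0.73 ± 0.13 (SE), with a 95% interval of 0.44 to 1.01 and an adjusted p of 0.0270. A pseudogene on the opposite strand within the gene, Gm18828, had 4 reads in all.

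The call of Zap70 depended on the fit, although the direction did not. Its log2 fold change lay between 0.59 and 0.81 in 15 other fits, and it passed the threshold in 10 of them. Without the sex term, which puts the male library among the Fl/Fl livers, the log2 fold change was 0.59 with an adjusted p of 0.420. It also failed to pass without LKO 4 (adjusted p = 0.0909), LKO 12 (0.0578), Fl/Fl 5 (0.0920) or Fl/Fl 7 (0.106). In the authors' deposited table, which compares all 4 Fl/Fl livers with LKO, the log2 fold change was 0.58 with an adjusted p of 0.0871.

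**Figure D2:**
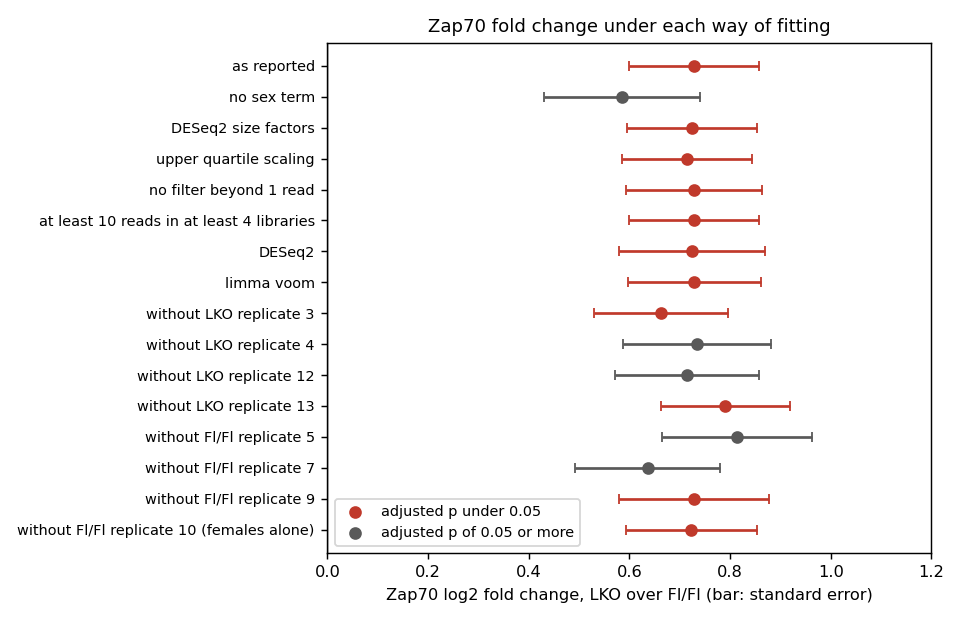
Fold change of Zap70 in LKO over Fl/Fl livers on the log2 scale (points) with its standard error (bars) in the fit as reported and in 15 other fits, red where the adjusted p is under 0.05. The estimates lie between 0.59 and 0.81, and 5 of the 15 other fits miss the threshold.

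The level of Zap70 was also set against genes that work beside it, library by library. The ratio of Zap70 to Lck in FPKM was 11.6 to 25.8 in LKO, 6.37 to 15.2 in female Fl/Fl and 37.1 in male Fl/Fl. Against Cd3e, a signalling chain of the receptor, the ratio was 28.9 to 58.6 in LKO, 21.5 to 31.5 in female Fl/Fl and 99.1 in male Fl/Fl. Both ratios overlapped between genotypes in females and were highest in the male library, where Lck and Cd3e were lowest. Against Syk, the sister kinase of ZAP-70 used by B and myeloid cells, the ratio was 4.77 to 5.02 in LKO, 2.55 to 5.05 in female Fl/Fl and 5.29 in male Fl/Fl. Neighbours of Zap70 on chromosome 1 were looked up after its value was known. Cox5b, a respiratory chain subunit, averaged 76.7 ± 10.8 CPM in LKO and 36.9 ± 4.45 CPM in female Fl/Fl (log2 1.06 ± 0.13 SE, adjusted p = 0.00881). The male Fl/Fl library had 104 CPM of Cox5b, above every LKO library (60.5 to 83.1 CPM). Actr1b and Tmem131, the closest tested genes on either side of Zap70, had log2 fold changes of 0.16 and 0.16 with adjusted p-values of 0.425 and 0.549.

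The receptor complex was measured by 6 genes, and none passed the test (adjusted p 0.570 to 0.978; 3 fold changes were negative and 3 positive, median log2 -0.03). Cd3e had 0.461, 0.345, 0.708 and 0.289 CPM in LKO 3, 4, 12 and 13, against 0.427, 0.333 and 0.561 CPM in female Fl/Fl 5, 7 and 9 and 0.171 CPM in the male. Trac, the constant part of the alpha chain, had 0.698, 0.608, 0.374 and 0.513 CPM in LKO, against 0.534, 0.564 and 0.809 CPM in female Fl/Fl and 0.1996 CPM in the male. For both genes the genotypes overlapped and the male library was the lowest of the 8. The log2 fold change was 0.03 ± 0.41 (SE) for Cd3e and -0.21 ± 0.34 for Trac. Cd3d and Cd3g, the other chains that pair with Cd3e, had log2 fold changes of 0.62 ± 0.47 and 0.48 ± 0.45, Trbc2, a constant part of the beta chain, of -0.19 ± 0.47, and Cd247, the zeta chain, of -0.09 ± 0.53. Trbc2 and Trbc1 are nearly identical and can split reads, and Trbc1 likewise did not pass (log2 -0.21 ± 0.36). Cd247 shares 12124 bases with Pou2f1 on the other strand, which had 5912 reads against the 154 of Cd247, and no source used here gives the strand setting of the counting.

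The coreceptors steer the receptor to one class of presenting molecule, and among these and Lck none passed. Cd4, which marks helper T cells and some liver macrophages, had 0.961, 0.8287, 1.54 and 0.579 CPM in LKO, against 0.908, 0.769 and 1.07 CPM in female Fl/Fl and 1.61 CPM in the male. Of the 26 genes beside Zap70, Cd4 was the one that was highest in the male library. Cd8a, one chain of the coreceptor of cytotoxic T cells, had 0.237, 0.0967, 0.468 and 0.210 CPM in LKO, against 0.561, 0.256 and 0.561 CPM in female Fl/Fl and 0.0570 CPM in the male. Its LKO mean of 0.253 ± 0.156 CPM (SD, n = 4) was below the female Fl/Fl mean of 0.459 ± 0.176 CPM (SD, n = 3), but LKO 12 lay above Fl/Fl 7. The log2 fold change was -0.85 ± 0.53 (SE, adjusted p = 0.467) for Cd8a and -0.78 ± 0.55 (adjusted p = 0.532) for Cd8b1, the other chain, against 0.09 ± 0.34 for Cd4. Lck had 0.619, 0.594, 1.27 and 0.631 CPM in LKO, against 0.627, 0.526 and 1.36 CPM in female Fl/Fl and 0.328 CPM in the male, a log2 fold change of -0.10 ± 0.42. LKO 12 and Fl/Fl 9 stood apart from the other libraries for Lck, with 1 in each genotype.

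**Figure D3:**
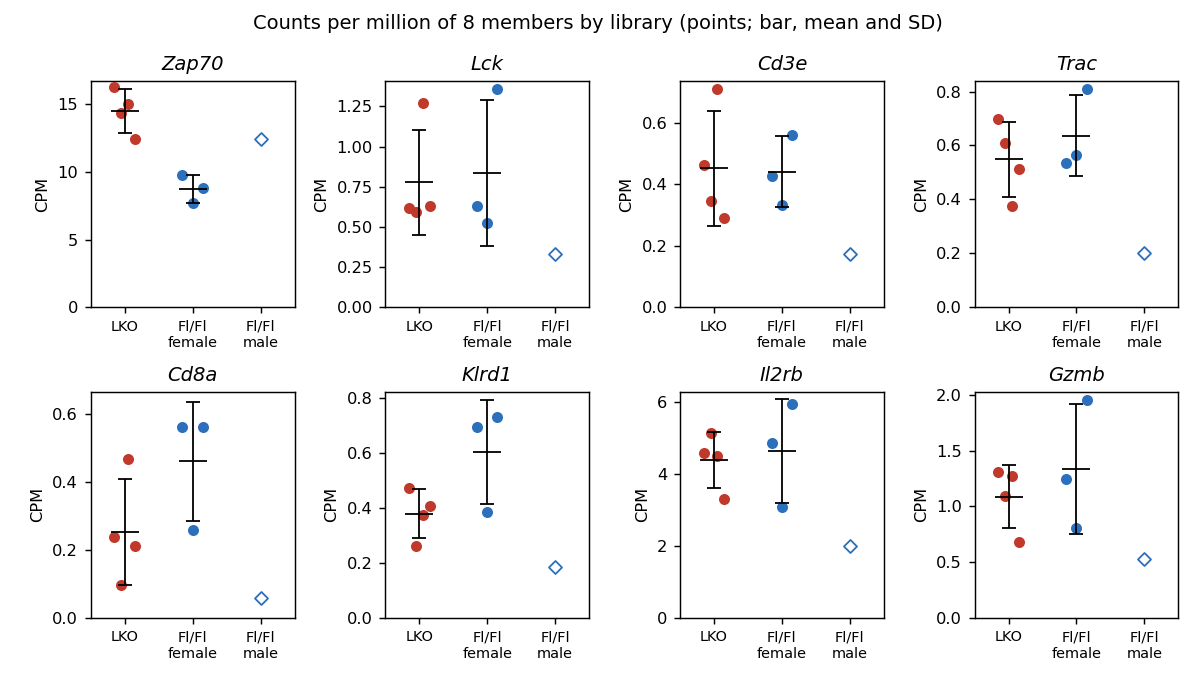
CPM of 8 of the genes in each library, with LKO left of female Fl/Fl and the single male Fl/Fl library at the right; horizontal bars and whiskers give the mean and SD of LKO (n = 4) and female Fl/Fl (n = 3). Zap70 separates the female groups, at 14.5 and 8.77 CPM on average, and the points of the other 7 genes overlap between them.

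The adhesion, costimulatory and survival receptors of T cells showed no common direction. None of 7 passed (adjusted p 0.455 to 0.883), with 4 positive and 3 negative fold changes. Cd6, an adhesion receptor that tunes T cell activation, had the largest positive value of these: 0.461, 0.456, 0.401 and 0.618 CPM in LKO, against 0.294, 0.0898 and 0.444 CPM in female Fl/Fl and 0.257 CPM in the male. LKO 12 lay below Fl/Fl 9, so the groups overlapped, and the log2 fold change was 0.81 ± 0.49 (SE, adjusted p = 0.455). Cd5, which dampens receptor signals and lies beside Cd6 on chromosome 19, had 0.26 ± 0.51, Cd27, a costimulatory receptor, 0.24 ± 0.54, and Il7r, the interleukin-7 receptor that sustains naive and memory T cells, 0.28 ± 0.29. On the negative side were Cd2, an adhesion receptor, at -0.47 ± 0.47, Cd28, the main costimulatory receptor of naive T cells, at -0.54 ± 0.43, and Cd96, a receptor of T and NK cells for nectin-like ligands, at -0.82 ± 0.53. Cd96 had no read in the male library, where 3 reads would have been 0.0428 CPM. Cd27 lies within Vamp1 on the other strand, with 2055 reads against 157 for Cd27, which leaves its counts uncertain.

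The NK receptors had 4 tested genes, all with negative fold changes and none past the threshold (adjusted p 0.411 to 0.978). Klrd1, the CD94 chain that pairs with NKG2 receptors, had 0.474, 0.262, 0.374 and 0.408 CPM in LKO, against 0.694, 0.385 and 0.731 CPM in female Fl/Fl and 0.185 CPM in the male. Its groups overlapped through Fl/Fl 7, and the log2 fold change was -0.66 ± 0.37 (SE), with the smallest adjusted p of the 26 genes. Klrk1, the activating receptor NKG2D, had 1.16, 1.22, 1.46 and 0.697 CPM in LKO, against 1.09, 1.13 and 2.23 CPM in female Fl/Fl and 0.870 CPM in the male. Il2rb, the chain shared by the interleukin-2 and interleukin-15 receptors, had 4.58, 5.15, 4.49 and 3.31 CPM in LKO, against 4.86, 3.09 and 5.96 CPM in female Fl/Fl and 1.996 CPM in the male. The log2 fold changes were -0.39 ± 0.33 for Klrk1, -0.08 ± 0.23 for Il2rb and -0.04 ± 0.54 for Klrb1c, which encodes NK1.1. Il2rb was the most precisely measured after Zap70, with a 95% interval of -0.59 to 0.43. The shared sign rested on single libraries. Without Fl/Fl 9, the library with the highest value of Klrd1, Klrk1 and Il2rb, the values of Klrk1, Il2rb and Klrb1c were positive, at 0.021, 0.14 and 0.20. Il2rb and Klrb1c were also positive without LKO 13, at 0.026 and 0.082, and Klrb1c without LKO 12 (0.071) or Fl/Fl 5 (0.30).

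The granule genes gave the same picture. All 4 tested genes had negative fold changes, none passed (adjusted p 0.728 to 0.893), and without Fl/Fl 9 those of Gzmb and Prf1 were positive, at 0.081 and 0.079. Gzmb, a serine protease that triggers death of target cells, had 1.30, 1.09, 1.27 and 0.684 CPM in LKO, against 1.24, 0.808 and 1.96 CPM in female Fl/Fl and 0.528 CPM in the male. Gzma, a second granule protease, had 0.9746, 0.622, 1.27 and 0.842 CPM in LKO, against 1.33, 0.628 and 1.28 CPM in female Fl/Fl and 0.570 CPM in the male. The log2 fold changes were -0.30 ± 0.34 (SE) for Gzmb, -0.22 ± 0.34 for Gzma, -0.27 ± 0.48 for Prf1, which encodes the pore-forming perforin, and -0.15 ± 0.38 for Nkg7, a granule membrane protein. The granzyme and Klr genes belong to families of similar neighbours that can share reads.

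**Figure D4:**
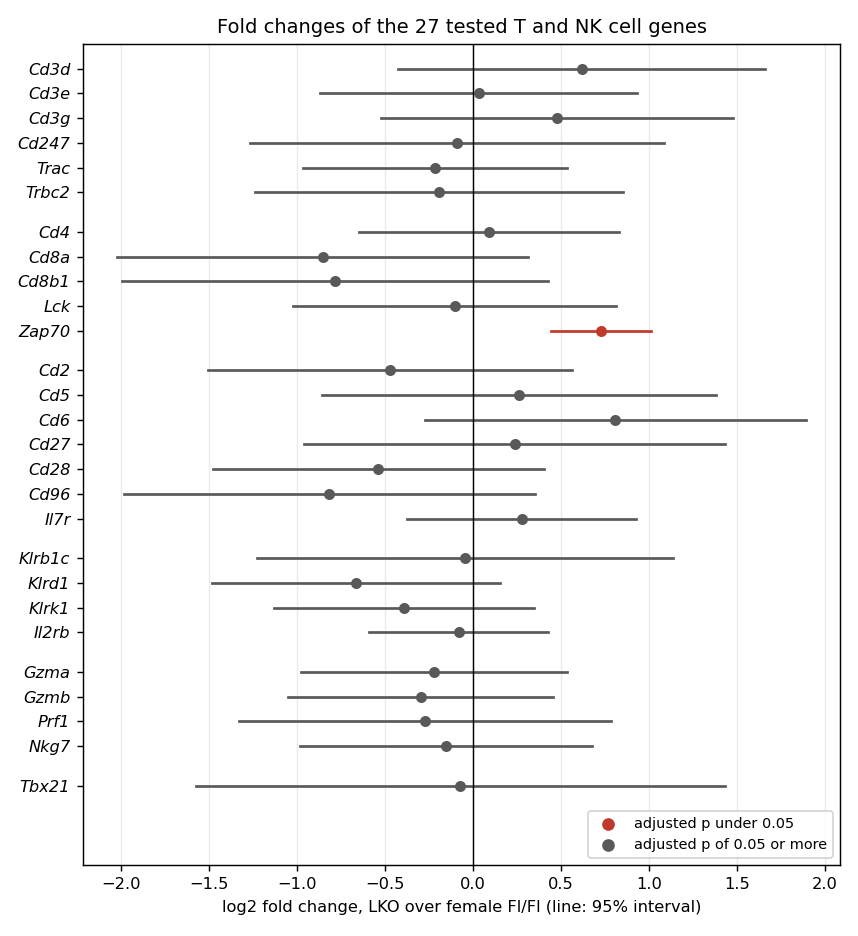
Fold change of LKO over female Fl/Fl on the log2 scale (points) with 95% intervals (lines) for the 27 tested T and NK cell genes, grouped by role; red marks an adjusted p under 0.05. The interval of Zap70, 0.44 to 1.01, is the one that leaves out 0, and those of 19 other genes reach beyond 1 on the log2 scale in at least one direction.

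The cytokine and transcription factor genes were mostly too low to test. Tbx21, the T-box factor of type 1 T cells and NK cells, passed the filter and had 0.132, 0.262, 0.401 and 0.0394 CPM in LKO, against 0.360, 0.141 and 0.157 CPM in female Fl/Fl and 0.1996 CPM in the male (log2 -0.07 ± 0.68 SE). Eomes, its relative in NK and memory CD8 T cells, had 7, 0, 7 and 0 reads in LKO, against 6, 4 and 23 reads in female Fl/Fl and none in the male. Ifng, the main cytokine of both cell types, had 2, 4, 4 and 0 reads in LKO, against 4, 3 and 0 reads in female Fl/Fl and 4 reads in the male. The libraries of both genotypes overlapped for these 3 genes. Xcl1, a chemokine of NK and CD8 T cells that draws dendritic cells, had 2 to 6 reads in LKO, 0 to 12 in female Fl/Fl and 4 in male Fl/Fl. Gzmk, another granzyme, had 2 reads each in LKO 12 and LKO 13 and none in the other 6 libraries.

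Foxp3 and Ncr1, which were also below the filter, had read counts that did not overlap between the female groups. Foxp3, the factor that defines regulatory T cells, had 12, 6, 12 and 17 reads in LKO 3, 4, 12 and 13, against 5, 2 and 3 reads in female Fl/Fl 5, 7 and 9 and 4 reads in the male. Ncr1, the activating NK receptor NKp46, had 5, 8, 7 and 4 reads in LKO, against 23, 9 and 18 reads in female Fl/Fl and 9 reads in the male. Foxp3 was thus higher and Ncr1 lower in every LKO library than in any Fl/Fl library, on a handful of reads each, and 15.1% of the genes with enough reads to test did not overlap either. In a fit of all 27110 genes, the log2 fold change was 1.80 (adjusted p = 0.426) for Foxp3 and -1.43 (adjusted p = 0.433) for Ncr1, and neither passed. Foxp3 shares 1340 bases with Flicr on its own strand, which had 68 reads, and lies within Gm36995 on the other strand, which had 36.

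Across the 27 tested genes, 18 fold changes were negative, or 66.7%, against 50.5% over all genes tested, and the median log2 fold change was -0.10 against -0.0032. The sign of the median rested on single libraries: it was 0.00024 when LKO 13 was left out, 0.01 when Fl/Fl 5 was and 0.08 when Fl/Fl 9 was, and -0.39 when Fl/Fl 7 was. The standard errors of the 26 genes beside Zap70 were 0.23 to 0.68, all their 95% intervals included 0, and 7 of the intervals lay within 1 on the log2 scale in both directions. The interval of Cd8a reached to -2.02 and that of Cd6 to 1.89.

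The libraries of each genotype differed widely among themselves. Fl/Fl 9 was the highest library for 10 of the 26 genes, and the male Fl/Fl 10 the lowest for 16. Among the female libraries LKO 13 was the lowest for 11 genes and Fl/Fl 7 for 8. The 32 genes without Zap70 summed to 19.0, 17.5, 21.6 and 13.005 CPM in LKO 3, 4, 12 and 13, against 20.4, 13.04 and 24.6 CPM in female Fl/Fl 5, 7 and 9 and 10.2 CPM in the male. LKO 13 and Fl/Fl 7 were therefore equally low, and Fl/Fl 9 was the highest. Markers of other leukocytes moved partly with this sum. The 8 pan-leukocyte markers, led by Laptm5, summed to 85.1, 83.9, 87.3 and 67.9 CPM in LKO, against 73.7, 76.4 and 103 CPM in female Fl/Fl and 63.7 CPM in the male. The 11 B and plasma cell markers, led by Ighm, summed to 8.68 to 14.5 CPM in LKO, 14.1 to 16.3 CPM in female Fl/Fl and 5.75 CPM in the male. The 12 macrophage and Kupffer cell markers, led by Clec4f, summed to 481 to 610 CPM in LKO, 416 to 610 CPM in female Fl/Fl and 460 CPM in the male. LKO 13 was the lowest LKO library and Fl/Fl 9 the highest female Fl/Fl library in the pan-leukocyte, B cell and macrophage sums. The sum of sinusoidal endothelial markers, which are not of leukocytes, had the same order, at 341 CPM in LKO 13 and 409 CPM in Fl/Fl 9. The sums of stellate cell and fibroblast markers and of cholangiocyte markers shared the order in part. The 8 dendritic cell markers did not follow this order, at 13.8, 12.2, 12.7 and 12.3 CPM in LKO 3, 4, 12 and 13, against 12.8, 15.04 and 12.3 CPM in female Fl/Fl 5, 7 and 9 and 9.197 CPM in the male. The part of leukocyte content in the values of the 33 genes was not tested.

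**Figure D5:**
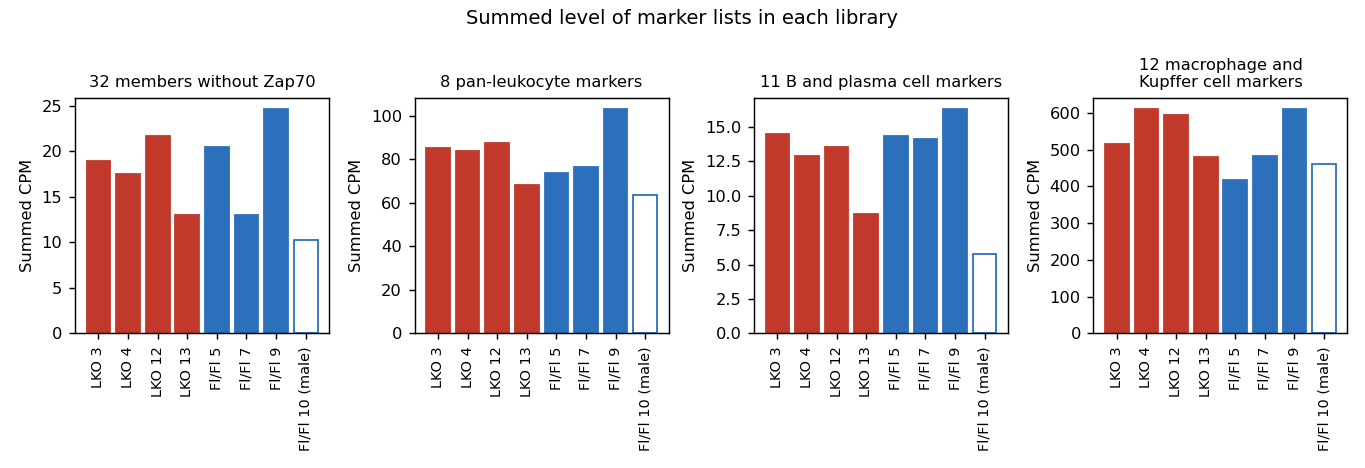
Summed CPM per library of the 32 genes without Zap70 and of 3 marker lists, with LKO bars (red) left of female Fl/Fl (blue) and male Fl/Fl (open). The 32 genes sum to 13.005 to 21.6 CPM in LKO and 13.04 to 24.6 CPM in female Fl/Fl libraries, and to 10.2 CPM in the male.

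Other genes of the same pathways, 104 tested of 129 listed, likewise gave few calls: 1 was higher and 1 lower, or 1.92% against 1.41% over all genes tested, 69 fold changes were negative, and the median log2 fold change was -0.17. Both called genes encode transcriptional regulators of these lineages that other liver cells also express. Hopx, an atypical homeobox gene of effector T cells, rose to 28.2 ± 2.48 CPM in LKO (SD, n = 4), against 16.9 ± 1.41 CPM in female Fl/Fl (SD, n = 3), a log2 fold change of 0.74 ± 0.10 (SE, adjusted p = 0.0133). Id2, an inhibitor of E proteins needed for NK cells, fell to 68.0 ± 12.8 CPM in LKO, against 111 ± 11.3 CPM in female Fl/Fl, a log2 fold change of -0.70 ± 0.14 (adjusted p = 0.0432). The male Fl/Fl library was on the LKO side for both, at 47.7 CPM for Hopx and 52.8 CPM for Id2, and without the sex term neither passed. Id2 passed in 8 and Hopx in 13 of 15 other fits. Zbtb16, the factor of NKT cells, had 78.5, 122, 24.9 and 57.6 CPM in LKO, against 10.8, 10.04 and 13.7 CPM in female Fl/Fl and 69.9 CPM in the male, and did not pass by edgeR (adjusted p = 0.110), although it passed without LKO 12 and with DESeq2.

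Among the signalling genes that act with ZAP-70, none of 30 tested passed by edgeR, and at an unadjusted p under 0.05 there were 1 higher and 5 lower. Over all genes tested 9.22% were higher and 6.86% lower at that level. Lcp2, which encodes SLP-76, an adaptor phosphorylated by ZAP-70, had 3.71, 3.33, 4.84 and 3.80 CPM in LKO, against 6.78, 5.83 and 6.18 CPM in female Fl/Fl and 3.02 CPM in the male. Every LKO library was below every female Fl/Fl library, and the log2 fold change was -0.68 ± 0.16 (SE, adjusted p = 0.0687). Of the 30 genes, 7 were below without overlap and 1 was above. Over all 16420 genes tested, 1022 were below and 1453 above without overlap, or 15.1% in both directions together. Malt1, a protease of the pathway from the receptor to NF-kappa-B, averaged 8.68 ± 0.906 CPM in LKO and 11.8 ± 0.929 CPM in female Fl/Fl (log2 -0.45 ± 0.12 SE, adjusted p = 0.104). In the fit of all 27110 genes, 4 of the related genes passed, DESeq2 called 8 and limma voom 1.

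The remaining related lists, with no gene past the threshold by edgeR, each gave a pair with the smallest p. Of 11 checkpoint and activation receptors, 3 were lower at an unadjusted p under 0.05, where 6.86% of all genes were; the adhesion receptor Cd44 averaged 10.6 ± 1.76 CPM in LKO and 15.7 ± 2.72 CPM in female Fl/Fl (adjusted p = 0.112), and the costimulator Icos 0.902 ± 0.212 CPM in LKO and 1.48 ± 0.251 CPM in female Fl/Fl (adjusted p = 0.230). Of 14 homing genes, 2 were lower at that level, the chemokine receptor Ccr2 at log2 -0.80 ± 0.33 (adjusted p = 0.259) and S1pr1, which guides lymphocytes out of tissue, at -0.32 ± 0.14 (adjusted p = 0.306). Of 14 cytokine and receptor genes, 1 was lower at that level, Il15ra at -0.35 ± 0.16 (adjusted p = 0.310), and Il12rb1 stood at 0.70 ± 0.44. Of 15 other NK receptors and adaptors and 4 other receptor constant genes none reached that level; Fcgr3 and Cd160 stood at 0.23 ± 0.16 and 0.68 ± 0.53, and Trbc1 and Tcrg-C1 at -0.21 ± 0.36 and 0.71 ± 0.70.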

How the data were processed

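Total RNA of 8 livers was extracted with a column kit and made into libraries with a NEBNext Ultra kit, per the labels' protocols. The submitters' processing notes name the build mm10 and, with no roles, STAR, fastp, featureCounts, HTSeq, edgeR, DESeq and DESeq2. Annotation and strand setting are not given in the sources used here. Per gene, the authors deposited read counts, normalised signal values (not used for tests), FPKM values, and their own log2 fold changes with p-values.

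In R 4.3.3, edgeR 4.0.16 fitted the counts of all 8 libraries (filterByExpr, TMM, genotype and sex terms, robust quasi-likelihood F test), with two-sided p-values adjusted by Benjamini-Hochberg over 16420 genes and a threshold of 0.05. The sex term absorbs the male library. CPM uses TMM-scaled totals, standard errors are the log2 fold change over the square root of F, and the biological coefficient of variation was 20.4%. A floor of 3 reads, worth 0.0385 to 0.0428 CPM, covers counting error only. The closest libraries, Fl/Fl 5 and 7, differed by a chi-square of 31.9 per degree of freedom, so no library was a copy of another. The male Fl/Fl 10 differed by 323 to 433 from every other library, and no other pair differed by more than 165. The fit was tested on simulated data.

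Members, role lists, related genes and alternatives were chosen with earlier results of these data known. All 33 genes were to be named. Of each related list, the genes past the threshold were named, or otherwise the pair with the smallest p. Alternatives were no sex term, females alone, DESeq2 size factors, upper quartile scaling, 2 other filters, DESeq2 1.42.0, limma 3.58.1 voom, each library left out in turn, and thresholds of 0.01 and 0.1. Promoter windows were matched by symbol.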

Additional observations from a re-analysis of the deposited data

Results flagged for a closer look

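Lck in LKO 12 stood apart from the other LKO libraries. It was at 1.27 CPM, against 0.594 to 0.631 CPM in LKO 3, 4 and 13, and the gap to the nearest was 0.945 of the range of the group. It was the 1 such case among 54 groups checked, where chance gives about 5%.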

How the results depend on the processing

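Zap70 kept its direction in all 15 other fits and its call in 10. The number of the 33 genes past the threshold was 1, and 0 without the sex term or at an adjusted p under 0.01; leaving out 1 library gave 0 to 1, with 0 without LKO 4, LKO 12, Fl/Fl 5 or Fl/Fl 7. Over all genes the 232 calls became 1 without the sex term, 462 without a filter, 885 with DESeq2, 18 at an adjusted p under 0.01, 531 under 0.1, and 4 to 727 with 1 library left out (4 without Fl/Fl 5, 727 without Fl/Fl 9). Of the related genes, 2 passed, and 0 without the sex term, 4 without a filter, 8 with DESeq2, 1 with limma voom, 0 at an adjusted p under 0.01 and 0 to 2 with 1 library left out. The cause was not tested.

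None of the other 26 genes passed under any alternative, where DESeq2 gave 9 of them no adjusted p, and 15 changed sign in at least 1. Without the sex term the log2 fold changes were 0.055 for Trac, 0.0069 for Trbc2, -0.16 for Cd4, 0.13 for Lck, 0.19 for Klrb1c and 0.14 for Il2rb. With limma voom they were -0.016 for Cd3e and 0.22 for Klrb1c. With 1 library left out the values ranged from -0.60 to 0.48 for Tbx21, -0.44 to 0.43 for Lck, -0.27 to 0.24 for Cd3e, -0.21 to 0.27 for Cd4, -0.12 to 0.51 for Cd5, -0.18 to 0.52 for Cd27 and -0.51 to 0.30 for Klrb1c. They ranged from -0.43 to 0.30 for Cd247, -0.61 to 0.23 for Trbc2, -0.31 to 0.14 for Il2rb, -0.39 to 0.092 for Nkg7, -0.57 to 0.021 for Klrk1, -0.56 to 0.081 for Gzmb and -0.67 to 0.079 for Prf1.

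No paired analysis was possible because the replicate numbers differ between the genotypes. With standard errors of 0.23 to 0.68, small changes of these genes lie within the error. An effect of sex on them was not tested, since 1 library was male.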
